A study of Mus musculus with 12 samples.

Results

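The tripartite motif (Trim) family was examined in regulatory T cells of diabetes-prone NOD mice and of NOD.Drak2-/- mice, which are labelled as lacking Drak2 (gene symbol Stk17b), a serine/threonine kinase of lymphocytes. Members were the genes of the deposited array table whose annotated symbol is Trim followed by a number and at most 1 letter, without Trim12a, Trim12c, Trim30a to Trim30d and Trim34a. This gave 55 members of 19505 named genes, and each member was represented by 1 row. There were 12 arrays, 6 per genotype, 1 array per mouse. All mice were female, 4 to 8 weeks old and on the NOD background, and received no treatment that the labels name. The labels describe the cells as CD4+, CD8-, CD25+ and CD45RBlo, taken from lymph nodes, while the listed sorting antibodies cover CD4, CD8 and CD45RB. The labels do not say how the Drak2 allele was made, or whether its loss is limited to T cells. The values are log2 intensities, so a difference of 1 is a doubling, and differences are given as NOD.Drak2-/- minus NOD.

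TRIM proteins carry a RING domain, B-boxes and a coiled coil at their amino end, and the RING makes many of them E3 ubiquitin ligases. Their carboxy ends differ and set the target: SPRY domains in many antiviral members, a PHD finger and bromodomain in the chromatin co-regulators of the Tif1 group, NHL repeats in others. Several members act in the sensing of viral RNA and are themselves induced by interferon, while others are best known from muscle, neurons or germ cells.

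Promoter sequences are shown for members on which the comparison below turns, and for Trim21 and Trim26, whose match to the interferon-stimulated response element lies whole within the stretch shown. They come from RefSeq on mouse assembly GRCm38.p6, run from 170 bases before the annotated start to 30 after it, and are written on the strand of the gene. Capitals mark bases matching the interferon-stimulated response element, searched on both strands, with overlapping matches joined. Trim59 lies at chr3:69044713-69044912 (minus strand), Trim25 at chr11:88999233-88999432 (plus strand), Trim56 at chr5:137116178-137116377 (minus strand), Trim21 at chr7:102565453-102565652 (minus strand) and Trim26 at chr17:36836976-36837175 (plus strand).
Trim59: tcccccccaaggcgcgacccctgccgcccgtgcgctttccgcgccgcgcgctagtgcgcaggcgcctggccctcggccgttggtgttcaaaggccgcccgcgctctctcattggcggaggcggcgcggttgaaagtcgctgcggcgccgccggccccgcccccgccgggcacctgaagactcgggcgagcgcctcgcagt
Trim25: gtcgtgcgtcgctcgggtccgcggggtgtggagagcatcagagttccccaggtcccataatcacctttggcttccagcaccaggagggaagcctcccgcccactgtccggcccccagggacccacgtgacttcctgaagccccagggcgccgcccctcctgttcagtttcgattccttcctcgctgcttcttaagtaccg
Trim56: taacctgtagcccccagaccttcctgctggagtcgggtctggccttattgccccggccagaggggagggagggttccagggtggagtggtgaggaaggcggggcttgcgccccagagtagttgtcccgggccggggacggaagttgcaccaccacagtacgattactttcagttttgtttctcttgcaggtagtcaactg
Trim21: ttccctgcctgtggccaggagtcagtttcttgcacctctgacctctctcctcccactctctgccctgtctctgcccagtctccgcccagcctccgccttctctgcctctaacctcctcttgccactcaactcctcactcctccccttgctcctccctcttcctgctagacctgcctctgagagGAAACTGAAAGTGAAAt
Trim26: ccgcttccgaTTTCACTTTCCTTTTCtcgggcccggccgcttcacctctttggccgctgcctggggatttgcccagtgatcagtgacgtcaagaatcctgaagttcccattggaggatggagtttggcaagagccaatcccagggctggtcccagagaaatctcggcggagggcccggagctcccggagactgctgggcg
In the Trim21 window the match ran from 14 to 29 bases after the start, and in the Trim26 window from position -160 to -145 before it. The Trim59, Trim25 and Trim56 windows held no exact match to these letters, and inexact matches were not searched. That of Trim2, 29 to 38 bases after its start, reaches past the stretch shown here and is not printed. Windows of 250 bases before to 50 after the start were found for 41 of the 55 members, 54 windows in all, because some genes have several starts. The motif occurred in 3 of the 54 windows (5.56%), those of Trim2, Trim21 and Trim26, against 3.44% of the 32851 windows of the table. The gamma-activated site, searched on both strands as TTCNNNGAA with N for any base, occurred in 6 of the 54 (11.1%), against 8.3% of all windows. The median GC content was 55.2% in members' windows and 52.7% in all windows.

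The arrays correlated with each other at 0.968 to 0.991 over the named genes. Of 13 regulatory T cell genes, 11 lay above background on every array, and the list's mean spanned 8.91 to 9.15 in NOD and 8.85 to 9.13 in NOD.Drak2-/-. Il2ra, which encodes the CD25 of the gate, lay within the background range (means 4.82 and 5.00). The level of Foxp3, the defining factor of regulatory T cells, is not reported here. None of 10 B cell genes and none of 11 myeloid or dendritic cell genes lay above background on all arrays. Their mean levels spanned 4.76 to 5.14 and 4.00 to 4.33 in NOD, and 4.70 to 5.49 and 4.00 to 4.39 in NOD.Drak2-/-. At an unadjusted limma p under 0.05, 1 B cell gene was higher and 2 were lower (30% of the list). Of the myeloid or dendritic cell genes, 1 was higher and 1 lower (18.2%), beside 9.43% of all genes in either direction. Cd8b1, a CD8 gene, lay above background on all 12 arrays (means 7.27 and 7.45), and Cd8a on none. The 2 measured erythroid genes exceeded background on some arrays. The Stk17b means were 10.52 ± 0.21 and 10.25 ± 0.15 (SD, 6 NOD and 6 NOD.Drak2-/- arrays), with a limma adjusted p of 0.517, so its row does not check the labels.

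Most of the family was dim in these cells. Background was read from 23 antigenomic rows, whose probes match no mouse sequence, and a member was taken as detected on an array where it exceeded the brightest of them. Of the 55 members, 13 (23.6%) were detected on all 12 arrays, against 28.5% of all genes. The 13 were Trim8, Trim11, Trim14, Trim24, Trim25, Trim27, Trim33, Trim37, Trim39, Trim44, Trim52, Trim56 and Trim65. A further 10 were detected on some arrays: Trim28 on 11, Trim3, Trim16, Trim26 and Trim41 on 10, Trim35 on 7, Trim59 on 6, Trim68 on 4, Trim32 on 2 and Trim2 on 1. The other 32 (58.2%) were detected on none, against 50.4% of all genes. Values of those 32 are background-range intensities, and differences in them are given only as such.

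No member of the Trim family differed between the genotypes at an adjusted p of 0.05 in the limma fit over all 19505 genes. The smallest adjusted p among members was 0.469, and 4 of all genes (0.0205%) passed. Differences of members ran from -0.46 to 0.62 with a median of -0.03, and the median over all genes was -0.02. The members' median lay between -0.06 and -0.0043 with 1 array left out, and at 0.13 with dim genes left out, where 21 members were tested. The sign was positive in 25 members and negative in 30, and over all genes it was positive in 8956 and negative in 10549. At an unadjusted p under 0.05 there were 7 members (12.7%), with 9.43% of all genes at that level. These were 4 higher members (Trim59, Trim14, Trim25 and Trim21), where 3.74% of all genes were higher, and 3 lower members (Trim54, Trim52 and Trim42), where 5.69% of all genes were lower. With each array centred on its median, 9 members were at that level, 7 higher and 2 lower, beside 1423 higher and 531 lower genes, and the median difference was 0.03 over members and 0.05 over all genes. In no member did the genotypes separate without overlap, and in 0.513% of all genes they did. The pooled SD within genotypes had a median of 0.29 over members and 0.25 over all genes.

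**Figure D1:**
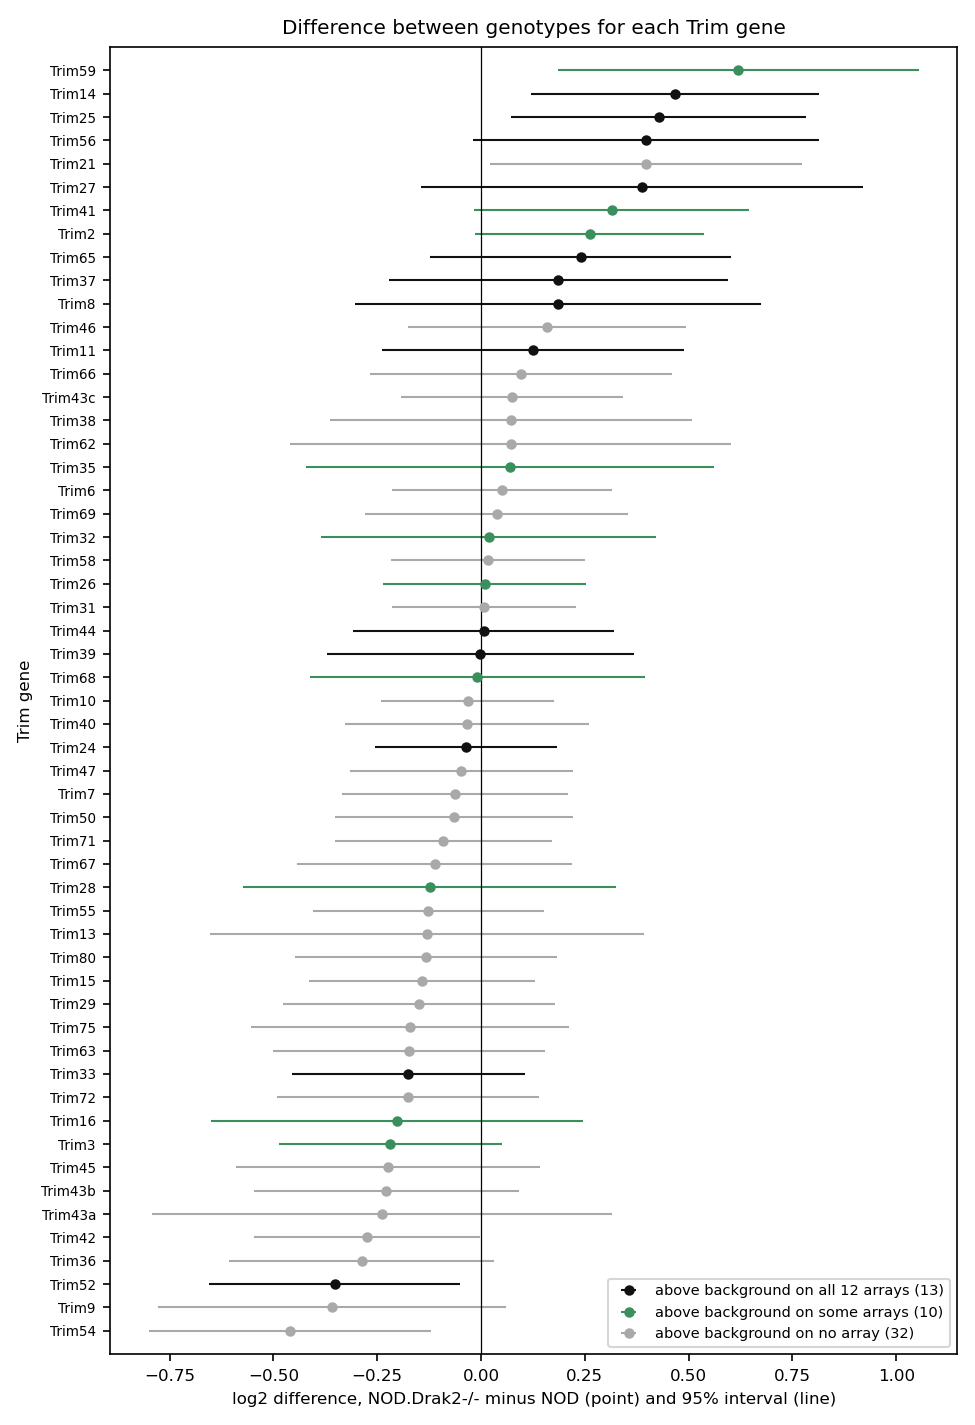
Difference of NOD.Drak2-/- minus NOD (log2, with 95% confidence interval from limma) for all 55 Trim members, ordered by size and coloured by detection above background. Differences range from -0.46 to 0.62, and no member passed an adjusted p of 0.05.

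By detection class, the 13 members above background on all arrays had a median difference of 0.19, with 9 positive. The 5568 genes of that class had a median of 0.05, with 3365 positive. The 10 members detected on some arrays had a median of 0.01, and the 4103 genes of that class had -0.05. The 32 undetected members had a median of -0.10, with 22 negative. The 9834 genes of that class had a median of -0.04, with 5951 negative. None of the 13 detected members passed the adjusted threshold. In bulk samples such as these, fewer cells of a type and less RNA per cell cannot be told apart.

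Among the members tied to RNA sensing, interferon and inflammatory signalling, 17 of a list of 19 were measured and none passed the threshold. Of the 17 differences, 14 were positive, and the median was 0.07. Of all 19505 genes, 8956 had a positive difference, and the median was -0.02. Trim25, the ligase that modifies the viral RNA sensor RIG-I, read 7.04, 7.16, 6.98, 7.10, 7.13 and 7.88 in NOD mice 1 to 6. In NOD.Drak2-/- mice 1 to 5 and 7 it read 8.06, 7.89, 7.63, 7.32, 7.60 and 7.35. All NOD.Drak2-/- arrays lay above 5 of the NOD arrays, and NOD mouse 6 lay among them, so the groups overlapped through that 1 array. The Trim25 means were 7.21 ± 0.33 and 7.64 ± 0.29 (SD, n = 6 each). The difference was 0.43 (SE 0.17, 95% confidence interval 0.07 to 0.78), with a limma adjusted p of 0.494 and a two-sided exact permutation p of 0.0476 before any adjustment. With 924 regroupings of 6 against 6, the smallest p the permutation test can give is 0.00216.

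Trim14, a member without a RING that works as an adaptor at the mitochondrial signalling platform of RIG-I, read 6.73, 6.87, 6.54, 7.26, 7.24 and 7.63 in NOD. It read 7.66, 7.66, 7.56, 7.25, 7.48 and 7.46 in NOD.Drak2-/-. The NOD.Drak2-/- values formed a narrow band near the top of the wider NOD range, with NOD mice 4 and 6 inside it. The difference was 0.47 (SE 0.16, interval 0.12 to 0.81), the limma adjusted p was 0.47 and the exact permutation p was 0.026. Trim56, an RNA-binding ligase of antiviral signalling, read 7.87, 8.27, 7.73, 8.26, 8.20 and 8.84 in NOD. It read 8.98, 8.995, 8.53, 7.93, 8.60 and 8.52 in NOD.Drak2-/-. The highest values were those of NOD.Drak2-/- mice 1 and 2, while NOD.Drak2-/- mouse 4 lay below the NOD mean, and the groups overlapped. The Trim56 difference was 0.40 (SE 0.20, interval -0.02 to 0.81) with a limma adjusted p of 0.54 and an exact permutation p of 0.0996.

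Trim21, a cytosolic antibody receptor and ligase, was not above background on any array. It read 4.42, 4.51, 4.68, 4.21, 4.55 and 4.33 in NOD, and 4.27, 4.45, 5.21, 5.09, 4.68 and 5.39 in NOD.Drak2-/-. NOD.Drak2-/- mice 3, 4 and 7 lay above every NOD mouse, mouse 5 was level with the highest of them, and mice 1 and 2 lay within the NOD range. The difference was 0.40 (SE 0.18), with a limma adjusted p of 0.517 and an exact permutation p of 0.0866. In NOD.Drak2-/-, the highest Trim21 readings fell on other arrays than those of Trim25 and Trim56, which peaked in mice 1 and 2. The arrays of mice 1 and 2 also had the brightest background rows, 6.52 and 6.77. All Trim21 readings lay in the background range, so they do not show which mice expressed more of it.

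**Figure D2:**
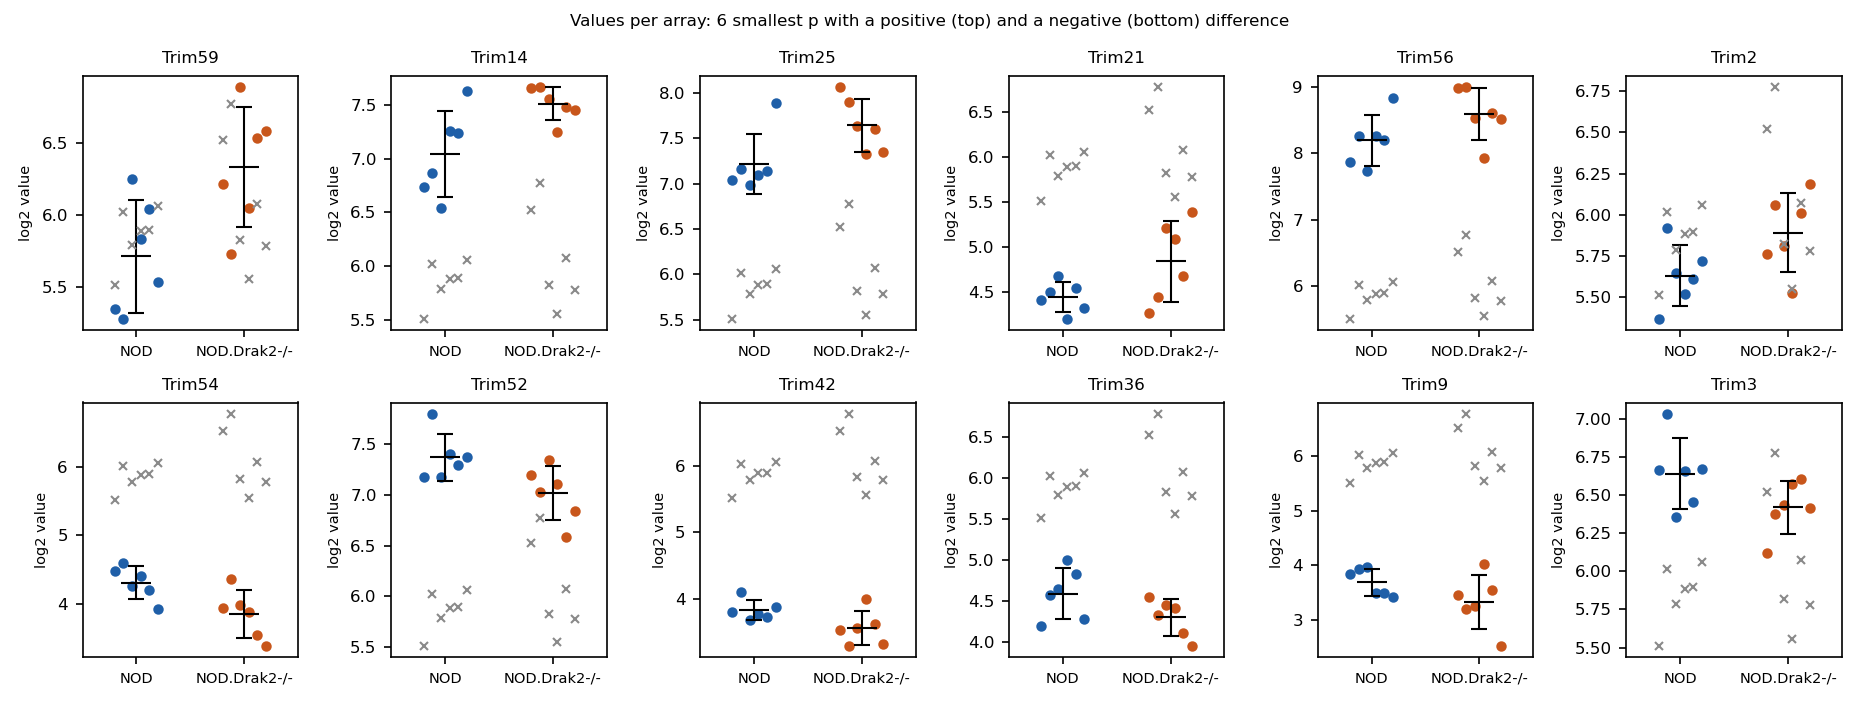
Log2 intensity on every array for the 6 members with the smallest p in each direction, NOD and NOD.Drak2-/- side by side, with black bars for the mean ± SD of 6 arrays and grey crosses for each array's brightest background row. Trim25, Trim14, Trim56 and Trim52 lie above the crosses on all 12 arrays, and the 2 genotypes overlap in every panel.

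The other detected members of this group had smaller differences or wider spreads. Trim27, a ligase of the nucleus and endosome, had means of 6.57 ± 0.50 and 6.96 ± 0.53 (SD, n = 6 each), a difference of 0.39. The Trim27 difference was 0.26 without NOD mouse 1 and 0.58 without NOD.Drak2-/- mouse 4. Trim65, a ligase for the RNA sensor MDA5, averaged 6.62 and 6.86, a difference of 0.24, or 0.11 without NOD mouse 1. Trim8, which binds the cytokine inhibitor SOCS1, averaged 7.96 and 8.15, and Trim11 averaged 7.37 and 7.50. Trim26, whose promoter holds the motif shown above, averaged 6.02 and 6.03, and Trim35 averaged 6.26 and 6.33. Limma adjusted p-values of these 6 lay at 0.633 or above. The remaining members, Trim6, Trim13, Trim15, Trim29, Trim31 and Trim38, were in the background range, and Trim32 exceeded it on 2 arrays.

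The mean of 36 interferon-stimulated genes, none of them a Trim gene, was 6.31, 6.55, 6.32, 6.44, 6.45 and 6.77 in the NOD mice and 7.04, 6.91, 7.10, 6.87, 6.53 and 6.48 in the NOD.Drak2-/- mice. NOD mouse 6, highest of its group for this list, was also highest of its group for Trim25, Trim14 and Trim56. In NOD.Drak2-/- the order differed. The list was highest in mouse 3, while Trim25 was highest in mouse 1 and Trim14 and Trim56 in mouse 2. Mouse 4 lay above mice 5 and 7 for the list, and was lowest of its group for Trim25, Trim14 and Trim56. With the list's mean as a covariate, the differences were 0.08 for Trim25, 0.10 for Trim56, 0.21 for Trim14, 0.57 for Trim21 and 0.77 for Trim59. The brightest background row also varied between arrays, from 5.51 to 6.06 in NOD and from 5.55 to 6.77 in NOD.Drak2-/-, and its highest readings, 6.52 and 6.77, came from NOD.Drak2-/- mice 1 and 2. Without those 2 arrays the differences were 0.26 for Trim25, 0.39 for Trim14, 0.20 for Trim56, 0.64 for Trim21 and 0.80 for Trim59. The mean of the RNA quality and dissociation genes was also highest on these 2 arrays, at 7.66 and 7.67 in NOD.Drak2-/- mice 1 and 2. It was 7.553 in NOD.Drak2-/- mouse 3 and 7.545 in NOD mouse 6, the highest NOD value. It spanned 7.25 to 7.55 in NOD and 7.17 to 7.67 in NOD.Drak2-/-. With it as a covariate the differences were 0.41 for Trim25, 0.45 for Trim14, 0.37 for Trim56, 0.41 for Trim21 and 0.63 for Trim59. The part of the interferon list and of the background row in the differences was not tested.

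**Figure D3:**
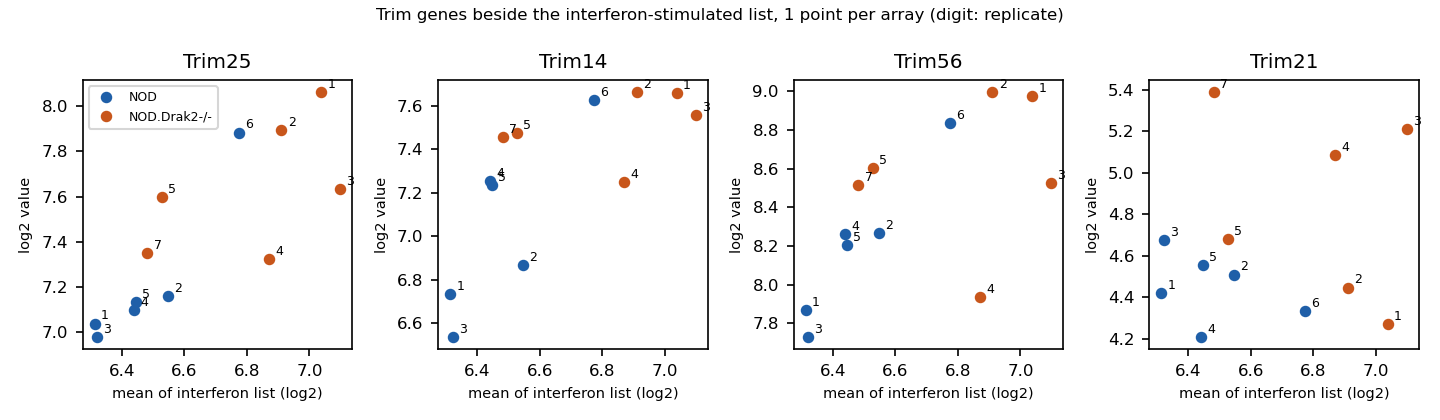
Log2 intensity of interferon-linked Trim members on each array against the mean log2 intensity of 36 interferon-stimulated genes on the same array, coloured by genotype. NOD mouse 6, at 6.77 on the horizontal axis, has the highest Trim25, Trim14 and Trim56 of its group. NOD.Drak2-/- mouse 3, at 7.10, has the highest list mean of its group, but not the highest Trim25, Trim14 or Trim56.

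None of the genes that work with Trim25 in RNA sensing passed the threshold, of 18 measured from a list of 24. The list's median difference was 0.27, and 8 were higher and 1 lower at an unadjusted p under 0.05, where 3.74% of all genes were higher and 5.69% lower. Ifih1, the sensor MDA5, averaged 6.46 ± 0.27 and 7.22 ± 0.27 (SD, n = 6 each), a difference of 0.76 with a limma adjusted p of 0.211. Usp18, an inhibitor of interferon receptor signalling, averaged 6.82 ± 0.57 and 7.92 ± 0.46, a difference of 1.10 with an adjusted p of 0.388. Of the 36 interferon-stimulated genes, 33 had positive differences and 14 were higher at an unadjusted p under 0.05, and none passed. Over all 19505 genes, 8956 differences were positive and 3.74% were higher at that level. The list shares Ifih1 with the one before, and Cmpk2, a mitochondrial nucleotide kinase, differed by 1.01 with an adjusted p of 0.332.

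Trim59, a ligase anchored in the endoplasmic reticulum membrane, had the largest difference in the family. It read 5.34, 5.28, 6.25, 5.83, 6.04 and 5.53 in NOD, and 6.21, 5.73, 6.89, 6.05, 6.54 and 6.58 in NOD.Drak2-/-. Each NOD.Drak2-/- value lay above the NOD mean, the groups overlapped, and the gene was above background on 2 NOD and 4 NOD.Drak2-/- arrays. The means were 5.71 ± 0.39 and 6.33 ± 0.42 (SD, n = 6 each), a difference of 0.62 (SE 0.20, interval 0.19 to 1.05), with a limma adjusted p of 0.469 and an exact permutation p of 0.0325. The other membrane-anchored member, Trim13, was in the background range, with means of 4.99 and 4.86.

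The Tif1 group links histone marks to transcription. Trim28 (Kap1) is the co-repressor that KRAB zinc finger proteins bring to retroelements, Trim24 reads histone H3 and is a ligase for p53, and Trim33 acts with Smad proteins below TGF-beta. Trim24 read 8.69, 8.56, 8.50, 8.75, 8.41 and 8.57 in NOD, and 8.39, 8.47, 8.47, 8.64, 8.54 and 8.75 in NOD.Drak2-/-. These ranges largely coincided, and the difference of -0.04 had a 95% confidence interval of -0.26 to 0.18. Trim33 read 8.27, 8.48, 8.51, 8.21, 8.51 and 8.09 in NOD, and 8.18, 7.70, 8.32, 8.37, 8.09 and 8.35 in NOD.Drak2-/-. NOD.Drak2-/- mouse 2 gave the lowest Trim33 value, and the difference was -0.18 (interval -0.46 to 0.11, limma adjusted p 0.681), or -0.08 without that mouse.

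Trim28 read 6.64, 6.19, 6.54, 6.64, 7.10 and 7.20 in NOD, and 6.87, 6.51, 7.14, 5.81, 6.41 and 6.82 in NOD.Drak2-/-. It varied more within each genotype than between them, with a difference of -0.12 (interval -0.57 to 0.32, limma adjusted p 0.868), or 0.03 without NOD.Drak2-/- mouse 4. It exceeded background on 11 of the 12 arrays. Trim66, a testis member of the group, read 3.31, 3.60, 2.78, 3.12, 2.72 and 3.32 in NOD and 2.75, 3.60, 3.07, 3.44, 3.14 and 3.43 in NOD.Drak2-/-, all in the background range. Of 20 measured genes that act with Trim28 in silencing, none passed the threshold. Their differences were positive in 10 and negative in 10, with a median of 0.00094. At an unadjusted limma p under 0.05, 2 were higher and 0 lower (10%), beside 9.43% of all genes in either direction. Morc3, a chromatin ATPase of nuclear bodies, differed by 0.46 (adjusted p 0.504), and Daxx, a histone H3.3 chaperone, by 0.50 (adjusted p 0.517).

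**Figure D4:**
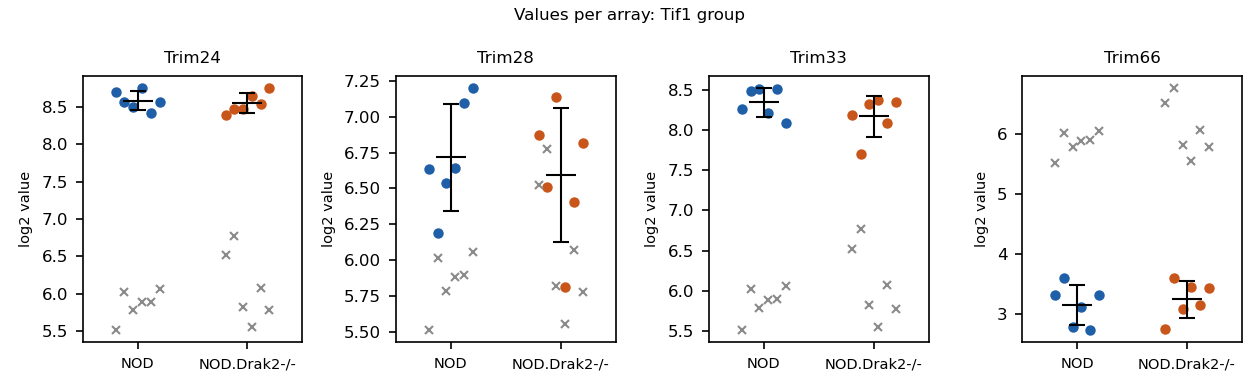
Log2 intensity on every array for the Tif1 members Trim24, Trim28, Trim33 and Trim66, with black bars for the mean ± SD of 6 arrays and grey crosses for each array's brightest background row. Trim24 and Trim33 lie above background on all 12 arrays, Trim28 on 11 and Trim66 on 0.

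The NHL repeat members include regulators of neurons and stem cells. Trim2, a neuronal ligase, read 5.37, 5.92, 5.65, 5.52, 5.61 and 5.72 in NOD, and 5.76, 6.06, 5.81, 5.53, 6.01 and 6.19 in NOD.Drak2-/-. It was above background on 1 array, and the groups overlapped, with a difference of 0.26 (limma adjusted p 0.541). Trim3 read 6.67, 7.03, 6.35, 6.66, 6.46 and 6.67 in NOD, and 6.12, 6.38, 6.43, 6.58, 6.61 and 6.41 in NOD.Drak2-/-. All NOD.Drak2-/- arrays lay below the NOD mean for Trim3, and the difference was -0.22 (adjusted p 0.597), or -0.14 without NOD mouse 2. Trim71, known from stem cells, stayed in the background range, with means of 5.16 and 5.07.

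Members whose COS box binds microtubules, 7 in all, were undetected on every array, and 6 of their differences were negative with a median of -0.17. Of the 9834 genes undetected on every array, 5951 had a negative difference, and the median was -0.04. Trim54, the muscle ligase MuRF3, read 4.47, 4.60, 4.26, 4.40, 4.20 and 3.92 in NOD, and 3.94, 4.36, 3.98, 3.88, 3.55 and 3.38 in NOD.Drak2-/-. The groups overlapped, and the difference was -0.46 (SE 0.16) with a limma adjusted p of 0.47 and an exact permutation p of 0.0281. Trim36 differed by -0.29, with values of 4.20, 4.57, 4.65, 5.00, 4.83 and 4.28 in NOD and 4.54, 4.32, 4.45, 4.41, 4.11 and 3.95 in NOD.Drak2-/-. Trim9, a brain member, differed by -0.36, with values of 3.84, 3.92, 3.96, 3.49, 3.49 and 3.42 in NOD and 3.45, 3.19, 3.25, 4.02, 3.54 and 2.52 in NOD.Drak2-/-. The lowest Trim9 value was that of NOD.Drak2-/- mouse 7, and the difference without it was -0.20. The muscle members Trim55, Trim63 (MuRF1) and Trim72, which reseals damaged muscle membranes, also lay in the background range, with differences of -0.13, -0.17 and -0.18. These were -0.03 without NOD mouse 2, -0.08 without NOD.Drak2-/- mouse 5 and -0.06 without NOD.Drak2-/- mouse 2. Trim46, which organises microtubules in axons, had the one positive difference of the COS box group, 0.16, or 0.05 without NOD mouse 3. Trim67 differed by -0.11, or -0.03 without NOD.Drak2-/- mouse 1.

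Trim52, detected on all arrays, was the only member of that class that was lower at an unadjusted p under 0.05. It read 7.18, 7.80, 7.17, 7.41, 7.30 and 7.38 in NOD, and 7.20, 7.03, 7.35, 7.11, 6.59 and 6.84 in NOD.Drak2-/-. Every NOD.Drak2-/- array lay below the NOD mean, and NOD.Drak2-/- mice 1 and 3 lay inside the NOD range. The means were 7.37 ± 0.23 and 7.02 ± 0.27 (SD, n = 6 each), a difference of -0.35 (SE 0.14, interval -0.66 to -0.05), with a limma adjusted p of 0.502 and an exact permutation p of 0.026. Without NOD mouse 2, which gave its highest value, the Trim52 difference was -0.27.

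The remaining members showed no difference past the threshold. Trim37, a ligase of peroxisomes and centrioles, averaged 7.10 and 7.29, Trim44 averaged 7.98 and 7.99, and Trim39 averaged 6.69 in both. Trim41 averaged 6.10 and 6.41, and Trim16, which lacks a RING, averaged 6.84 and 6.64. Trim42, in the background range, read 3.80, 4.10, 3.68, 3.77, 3.72 and 3.87 in NOD and 3.53, 3.29, 3.56, 3.99, 3.62 and 3.31 in NOD.Drak2-/-, a difference of -0.27 (limma adjusted p 0.527, exact permutation p 0.0541). Trim10 and Trim58, known from red cell precursors, had means of 4.38 and 4.35, and of 3.50 and 3.52. Trim43a, Trim43b and Trim43c are near-identical copies whose probes may not separate them, and all lay in the background range. Trim45, Trim47, Trim62 and Trim69 also lay there, as did Trim7, Trim40, Trim50, Trim75 and Trim80, while Trim68 exceeded background on 4 arrays.

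Genes encoding TRIM-type proteins under other names, 12 measured, held none past the threshold, with 6 positive and 6 negative differences. Triml1 differed by -0.42 (adjusted p 0.485) and Fsd2 by -0.31 (adjusted p 0.543), both in the background range. Of 13 measured E2 enzymes, which hand ubiquitin to RING ligases, none passed either. Ube2e3 averaged 8.54 and 8.20, and Ube2e1 averaged 7.02 and 7.37.

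Single arrays held many of the extreme values, and which ones differed by detection. Of the 55 members, 20 had their highest value on NOD mouse 2 and 10 their lowest on NOD mouse 1. Over all genes, NOD mouse 2 held the highest value for 18% and NOD mouse 1 the lowest for 9.22%. The median over all genes was also highest on NOD mouse 2, at 5.34, with 5.18 to 5.28 on the other arrays. Only 1 of the 13 detected members was highest on NOD mouse 2 (7.69%), against 6.09% of the genes detected on all arrays. Of the 13 detected members, 3 had their highest value on NOD.Drak2-/- mouse 1 (23.1%) and 4 on mouse 2 (30.8%), against 782 (14%) and 714 of the 5568 genes detected on all arrays. For the lowest value, 4 lay on NOD mouse 1 (30.8%) and 3 on NOD mouse 3 (23.1%), against 904 (16.2%) and 461 (8.28%) of those genes.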

How the data were processed

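Per the submitters' processing notes, the arrays were processed with the R package oligo and RMA, with no version named. The values used are the deposited log2 intensities, 29129 rows for 12 arrays, ranging from 1.49 to 12.8. The 19572 rows with 1 annotated symbol gave 19505 genes, the brightest row being kept per gene. RMA shares a common distribution between arrays and so removes any difference in total signal. Array values have no counts, and the number of arrays limits their precision. No source used here names the genome build of the annotation.

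All genes were fitted with limma 3.58.1 in R 4.3.3 (lmFit, eBayes), NOD.Drak2-/- against NOD, without covariate, with Benjamini-Hochberg adjustment over 19505 genes and a threshold of 0.05. The fit was tested on simulated data, where recovery was required only for planted differences larger than that of any member. That check does not show that differences as small as the members' would be found. Permutation p-values of single members are exact, two-sided and unadjusted. Per-array values are given for members past the threshold, the 6 smallest p in each direction and the Tif1 group, and from each partner list the genes past the threshold or with the 2 smallest p are named. Members and lists (role groups, TRIM proteins named otherwise, Trim28 partners, RNA sensing genes, E2 enzymes, interferon-stimulated genes and cell type markers) were chosen with earlier results of these data known. The titles call the samples biological replicates. Same-numbered arrays of the genotypes did not deviate together, so replicate numbers were not taken as pairs. Alternatives were median centring, leaving out dim genes, eBayes with trend and robust settings, array weights, the mean of all rows of a gene, each array left out, the replicate block, and, chosen after seeing the data, marker lists or the brightest background row as covariates and leaving out both arrays with the brightest background rows.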

Additional observations from a re-analysis of the deposited data

Results flagged for a closer look

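In 5 of 110 groups of 6 arrays, a member and a genotype each, 1 array stood far from the other 5 by Dixon's criterion, which chance meets in about 1 in 20 groups. Trim25 read 7.88 in NOD mouse 6, above the 6.98 to 7.16 of the other NOD mice. Trim52 read 7.80 in NOD mouse 2, above 7.17 to 7.41. Trim55 read 5.88 and Trim6 read 4.47 in the same NOD mouse 2, above 5.20 to 5.45 and 3.88 to 4.07, both in the background range. Trim72 read 4.12 in NOD.Drak2-/- mouse 2, below the 4.72 to 5.01 of the other NOD.Drak2-/- mice, also in the background range.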

How the results depend on the processing

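No Trim member passed the adjusted threshold under any setting run, and 29 of 55 members kept the sign of their difference in all of them. In 106 of 1286 combinations of member and setting the sign turned. Exact permutation tests were run at the main setting only. The 4 genes past the threshold over all genes became 0 with the replicate block. The block used only arrays whose number occurs in both genotypes, so NOD mouse 6 and NOD.Drak2-/- mouse 7 were left out. The count became 1 with the interferon list, B cell markers or brightest background row as covariate, 2 with myeloid markers and 5 with RNA quality genes. It was 2 without both arrays with the brightest background rows, and 1 to 2 with 1 array left out. Replicate numbers did not pair the arrays: same-numbered arrays correlated at -0.18 to 0.09 over 5 pairs, none best with its own number. With the block 7 members (12.7%) were at an unadjusted p under 0.05, and 7.79% of all genes. The main count of 7 became 4 of 21 members (19%) with dim genes left out, beside 9.57% of the genes tested. It became 4 (7.27%) without both bright-background arrays, beside 8.12% of all genes, and 5 to 10 with 1 array left out. The 10 (18.2%), without NOD.Drak2-/- mouse 4, stood beside 13% of all genes. The cause was not tested.

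Members whose sign turned are given with their log2 difference. With median centring: Trim10 0.0330, Trim24 0.0298, Trim39 0.0638, Trim40 0.0317, Trim47 0.0181, Trim50 0.000433, Trim68 0.0570, Trim7 0.00269. With array weights: Trim31 -0.0608, Trim32 -0.0124, Trim35 -0.14, Trim38 -0.0214, Trim39 0.00883, Trim44 -0.0307. With the replicate block: Trim38 -0.19, Trim39 0.0597, Trim40 0.00985, Trim43c -0.0115, Trim58 -0.0539, Trim6 -0.0240, Trim68 0.12. With the interferon list as covariate: Trim16 0.11, Trim24 0.0631, Trim26 -0.00965, Trim32 -0.36, Trim45 0.00903, Trim47 0.11, Trim62 -0.33, Trim65 -0.0256, Trim68 0.0222, Trim69 -0.00236, Trim8 -0.0431. With B cell markers: Trim26 -0.0147, Trim31 -0.00354. With myeloid markers: Trim32 -0.000427. With RNA quality genes: Trim32 -0.00523. With the brightest background row: Trim11 -0.0207, Trim24 0.00917, Trim26 -0.00262, Trim31 -0.0314, Trim32 -0.15, Trim35 -0.0578, Trim69 -0.0159. With both bright-background arrays left out: Trim24 0.0218, Trim31 -0.0500, Trim32 -0.19, Trim35 -0.0289, Trim58 -0.0153, Trim7 0.0381. With 1 array left out, the ranges of those that turned were Trim26 -0.0493 to 0.0553, Trim31 -0.0190 to 0.0547, Trim32 -0.0794 to 0.12, Trim35 -0.11 to 0.19, Trim38 -0.0968 to 0.18, Trim69 -0.0337 to 0.15, Trim10 -0.0625 to 0.0210, Trim39 -0.11 to 0.0784, Trim40 -0.10 to 0.0392, Trim44 -0.11 to 0.0989, Trim58 -0.0377 to 0.0590, Trim62 -0.0725 to 0.26, Trim47 -0.13 to 0.0207, Trim68 -0.0949 to 0.13, Trim7 -0.12 to 0.00785, Trim13 -0.30 to 0.0488, Trim28 -0.23 to 0.0327, Trim6 -0.00461 to 0.13, Trim50 -0.15 to 0.00130.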
